A study of Homo sapiens with 7 samples.

Results

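miR-139 is made from 1 hairpin gene, MIR139, which lies inside the gene PDE2A, and each of its arms, hsa-miR-139-5p and hsa-miR-139-3p (miR-139-5p and miR-139-3p from here on), has a row in every library of this series. These 2 rows, taken by name from the 2652 mature miRNAs counted, are described here across 7 small RNA libraries of HepG2, an established human hepatocellular carcinoma line. The pair was selected on measured values, the rise of miR-139-5p by 48 h of siRNA treatment, so the levels at 48 h are a description and carry no test. The libraries are 1 of untreated wild-type HepG2 cells (0 h) and 1 each of cells given siRNA 1 or siRNA 2 for 24, 36 and 48 h. Both siRNAs were aimed at TEAD1, one of the TEAD family of DNA-binding factors through which the Hippo effectors YAP and TAZ act, and the study asked which miRNAs depend on it. The mRNA of TEAD1 was not measured, as these are libraries of small RNA. No library of cells given a control siRNA was analysed here, so effects of the transfection itself, of hours in culture and of less TEAD1 cannot be told apart. The labels do not say that libraries came from separate cultures. Replicates of a time are the libraries of its siRNAs, and p-values against untreated measure only the spread between them. That spread may be technical or lie in the siRNAs. For siRNA 2 against siRNA 1, p-values measure how that difference varies between times.

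A miRNA hairpin is cut by Drosha and Dicer into a short duplex. One strand is usually kept by Argonaute and guides it to mRNAs through the seed, while the passenger strand is mostly degraded. miR-139-5p is known as the guide strand, is described as lower in hepatocellular carcinoma than in liver, and is known to target ROCK2, a kinase of cell motility, and the growth factor receptor IGF1R. Its host PDE2A encodes a phosphodiesterase that breaks down cyclic nucleotides and is stimulated by cyclic GMP. In liver cancer cells the histone methyltransferase EZH2 is known to silence miR-139-5p along with several other miRNAs.

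The mature arms and their hairpin are shown because the results turn on how differently the arms accumulate. In the mature sequences, the seed (bases 2 to 8) is in capitals, and in the hairpin the capitals mark the 5p arm and then the 3p arm.
miR-139-5p: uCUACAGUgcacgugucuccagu
miR-139-3p: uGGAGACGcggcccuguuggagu
MIR139 hairpin: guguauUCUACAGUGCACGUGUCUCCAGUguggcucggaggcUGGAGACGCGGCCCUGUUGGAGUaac
The sequences are from RefSeq on GRCh38.p14, and both mature sequences equal those in the deposited files. On that build the hairpin of 68 bases lies on the minus strand of chromosome 11, from 72615063 to 72615130. miR-139-5p takes up 72615102 to 72615124 and miR-139-3p 72615066 to 72615088. Each arm has 23 bases, of which 12 in the 5p arm and 15 in the 3p arm are G or C. RNAfold predicted 19 base pairs between the arms, 2 of them G with U, and a free energy of -35.6 kcal/mol for the hairpin. No other human mature miRNA in the RefSeq table shares either seed, and no other row of the files has either mature sequence.

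In the GENCODE 29 annotation of GRCh38, PDE2A runs from 72576141 to 72674591 on chromosome 11 on the same strand as the hairpin. Of its 27 transcripts 17 span the hairpin, and in all 17 it is intronic. The 5′ end of the gene lies 59.5 kb upstream of the hairpin. GGAATG, the core of the motif bound by TEAD factors, was searched on both strands of the RefSeq promoter window of PDE2A, which covers 250 bases before and 50 after the gene's start. It was not found there, and 14.0% of 35116 such windows hold it. The annotated PDE2A transcripts have 25 distinct starts, and the window is placed at the start of the gene only.

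The libraries held 1920832 to 6171851 reads assigned to a miRNA, with the untreated library the deepest. These were 43.1% of all its reads and 13.4% to 26.5% in the siRNA-treated libraries. Levels are CPM of miRNA reads, scaled by TMM, a method that assumes most miRNAs equal between libraries. Of 5 liver miRNAs listed as markers, 4 had reads in every library and miR-885-5p had 0 in all 7. miR-122-5p, the main hepatocyte miRNA, stood at only 45.5 CPM in untreated cells. The 5 together summed to 21011 CPM untreated and 16102 to 27464 CPM after siRNA, with 20663 and 16945 CPM at 48 h. Most of this was miR-148a-3p, at 18414 CPM untreated, followed by miR-192-5p at 2479 CPM. Of 5 markers of brain and neurons, miR-124-3p, which defines neurons, had 0 reads in all 7, while the other 4 had reads in every library. These 5 summed to 3942 CPM untreated, nearly all of it miR-128-3p. On the first principal component (63.1% of the variance of log2 CPM) the 48 h libraries (10.6 with siRNA 1 and 10.8 with siRNA 2) and that of siRNA 2 at 36 h (14.05) stood apart from the other 4, at -9.49 to -7.86. The libraries of 36 h thus lay at opposite ends. Their labels could not be checked, as TEAD1 was not measured, so every 36 h value by siRNA takes them as given.

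miR-139-5p, the guide arm, was present in every library at a level well above the limit that a count of 0 allows (3 reads, 0.559 to 1.52 CPM). Untreated cells had 1218 reads, or 227 CPM (95% exact Poisson interval 214 to 240). With siRNA 1 its level over the times of 24, 36 and 48 h was 162, 166 and 785 CPM, from 547, 328 and 1797 reads. With siRNA 2 the values were 388, 479 and 591 CPM, from 927, 1162 and 1416 reads. The lowest values were those of siRNA 1 at 24 and 36 h, below untreated, and both 48 h libraries lay above the other 5. Among the 458 miRNAs tested, 10.3% also had both 48 h libraries above the other 5. Reads carry no molecular identifiers, so these intervals cover counting error only. In order of level only the lowest neighbours, siRNA 1 at 24 h (interval 148 to 176) and at 36 h (148 to 185), had intervals that overlapped. By abundance miR-139-5p ranked 117th in untreated cells, 131st with siRNA 1 at 36 h and 72nd with siRNA 1 at 48 h.

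**Figure D1:**
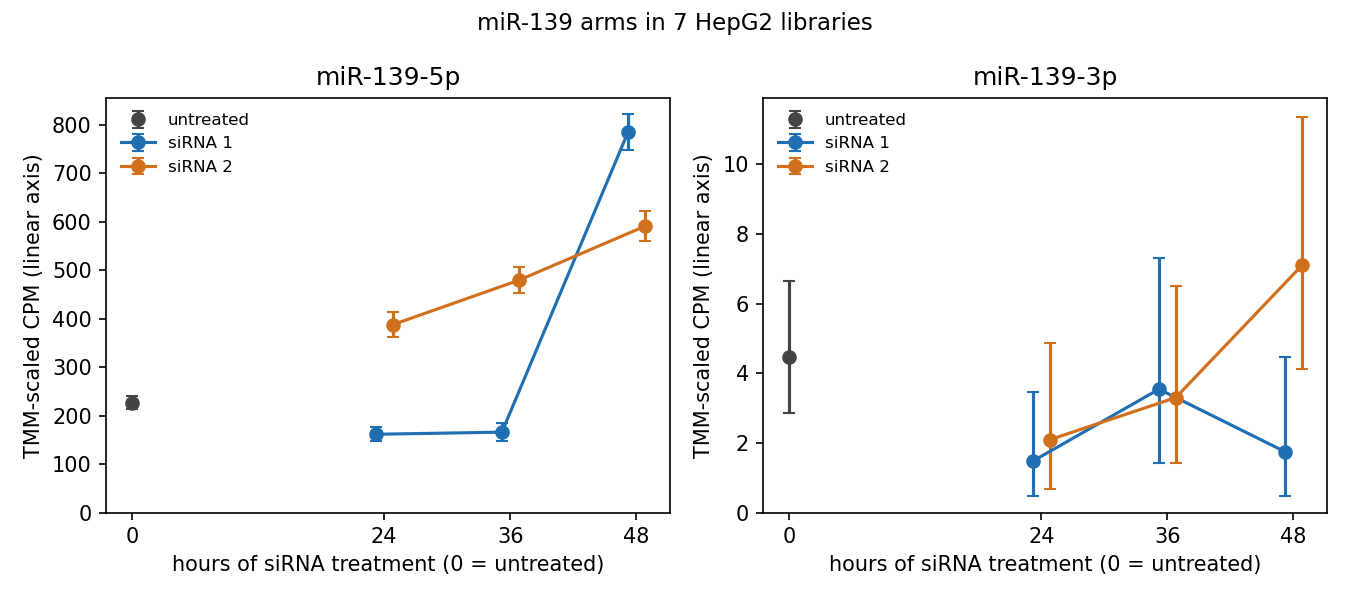
CPM (TMM-scaled, linear axes from 0) of miR-139-5p and miR-139-3p against hours of treatment, 1 point per library with its 95% exact Poisson interval. miR-139-5p at 48 h (785 and 591 CPM) sits above all other libraries, while miR-139-3p stays between 1.48 and 7.09 CPM.

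As labelled, the courses of the siRNAs differed, and their shape rests on the labels of the 36 h libraries. With siRNA 1 miR-139-5p was level between 24 and 36 h (ratio 1.03, 95% interval 0.893 to 1.18, counting error only) and 4.73 times as high at 48 h as at 36 h (4.20 to 5.34). With siRNA 2 the steps were 1.24 (1.13 to 1.35) and then 1.23 (1.14 to 1.33). From 24 to 48 h the ratio was 4.85 with siRNA 1 and 1.52 with siRNA 2. siRNA 2 thus gave the higher value at 24 and 36 h and the lower one at 48 h, a pattern seen in 18.3% of the 458 miRNAs. Steps that were each upward were seen with siRNA 1 in 21.6% of the miRNAs and with siRNA 2 in 17.0%.

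For 48 h against untreated, the log2 fold change of miR-139-5p was 1.60 ± 0.78 (SE, 2 libraries against 1), with means of 688 ± 137 CPM (SD, n = 2) and 227 CPM. It ranked 25th from the top of the 458 miRNAs, whose median was -0.02, and 41.9% of them had both 48 h libraries above untreated. For 48 h against 24 h it was 1.33 ± 0.60, ranked 18th, and the level at 24 h was 275 ± 160 CPM (SD, n = 2). Of the 458, 28.2% had both 48 h libraries above both 24 h libraries. Leaving out the 24 h library of siRNA 1 gave 0.82 and leaving out that of siRNA 2 gave 2.14. Without both 36 h libraries the values were 1.64 ± 0.31 against untreated and 1.30 ± 0.24 against 24 h, with smaller errors. Over all miRNAs edgeR called 0 for 48 h against untreated, with 53 under an unadjusted 0.05, limma-voom called 0 and DESeq2 12. Without the 36 h library of siRNA 1 edgeR called 94, and without that of siRNA 2 it called 113.

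The size of this difference moved with the scale. As a share of all miRNA reads, with no TMM, the 48 h value against untreated was 1.95, and the median over the 458 was 0.33. Scaled by all reads of a library it was 0.47 ± 0.73, with a median of -1.14. Relative to that median it was 1.62, 1.62 and 1.61 under TMM, miRNA reads and all reads. Taking off the median removes most of any change of scale, so these values are near equal by construction and do not test the scale. As CPM of all reads, miR-139-5p stood at 85.1 in untreated cells, at 38.8, 22.9 and 129 with siRNA 1, and at 59.5, 88.5 and 107 with siRNA 2. Both 48 h libraries were the highest on this scale too.

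**Figure D2:**
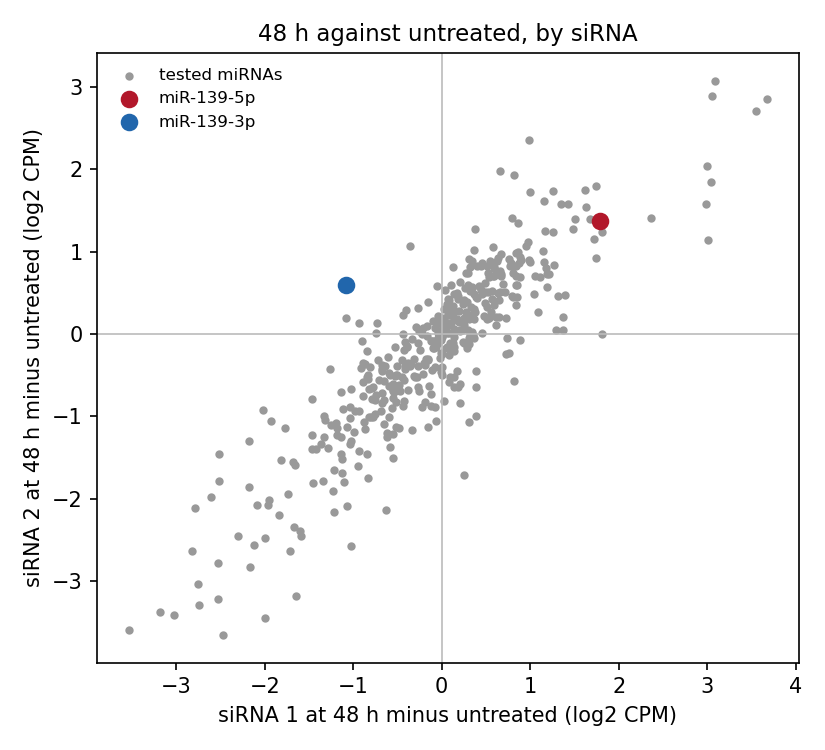
Difference in log2 CPM from the untreated library at 48 h for each of the 458 tested miRNAs, siRNA 1 on the horizontal and siRNA 2 on the vertical axis. miR-139-5p lies on the side higher with both (1.79 and 1.38), and miR-139-3p lies lower with siRNA 1 (-1.08) and higher with siRNA 2 (0.59).

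The 24 and 36 h contrasts against untreated were tested with edgeR's quasi-likelihood test, adjusted over all miRNAs by the Benjamini-Hochberg method. They share the untreated library with the rise that chose the pair. A low untreated value is favoured by that choice, so these p-values are not free of it. At 24 h miR-139-5p did not differ detectably from untreated (log2 fold change 0.27 ± 0.73 SE, adjusted p = 0.997). The siRNAs lay on opposite sides of untreated, at 162 and 388 CPM, and leaving out the 24 h library of siRNA 2 gave -0.50, while leaving out that of siRNA 1 gave 0.77. At 36 h the value was 0.51 ± 0.73 (adjusted p = 0.946), with 166 and 479 CPM again on either side of untreated. It was -0.46 without the 36 h library of siRNA 2 and 1.11 without that of siRNA 1 (adjusted p = 0.0666, edgeR). Scaled by all reads, the 24 h value was -0.79 and the 36 h value -0.61. In both contrasts 0% of the 458 miRNAs were called by edgeR or limma-voom, with 11 and 19 under an unadjusted 0.05 by edgeR, and DESeq2 called 1 and 7. Without the 36 h library of siRNA 1 edgeR called 5 and 91, and without that of siRNA 2 it called 14 and 14. miR-139-5p was not called in any of these fits.

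siRNA 2 was compared with siRNA 1 at matched times. miR-139-5p averaged 486 ± 102 CPM (SD, n = 3) with siRNA 2 and 371 ± 358 CPM with siRNA 1. The log2 difference was 0.84 ± 0.42 (SE), higher with siRNA 2 at 24 and 36 h, and it did not pass by edgeR (adjusted p = 0.992). By fold it ranked 12th of the 435 miRNAs tested, of which 0% were called, with 6 under an unadjusted 0.05 and 0 calls by DESeq2 and limma-voom. The value was 0.46 without the 36 h library of siRNA 1 and 0.49 without that of siRNA 2. It was 1.44 without the 48 h library of siRNA 1 and 1.40 without that of siRNA 2. At 24 h the difference between the siRNAs was 1.26 on the log2 scale, against an SD over all miRNAs of 0.57, and at 36 h it was 1.53 against 1.22. At 48 h it was -0.41 against 0.50, with siRNA 2 the lower. Without both 36 h libraries the fitted difference was 0.52.

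miR-139-3p, the passenger arm, was near the limit of these libraries. Its 70 reads over 7 libraries give a mean count of 10.0, the minimum set for a test. Untreated cells had 24 reads, or 4.47 CPM (95% interval 2.87 to 6.66). With siRNA 1 it had 5, 7 and 4 reads at 24, 36 and 48 h, or 1.48, 3.54 and 1.75 CPM. With siRNA 2 it had 5, 8 and 17 reads, or 2.09, 3.30 and 7.09 CPM. The highest value was siRNA 2 at 48 h and the next was untreated. Of the 48 h libraries siRNA 2 was the highest of the 7 and siRNA 1 the second lowest, above siRNA 1 at 24 h. The interval of siRNA 2 at 48 h (4.13 to 11.4 CPM) overlapped that of every library but siRNA 1 at 24 h (0.480 to 3.45 CPM).

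Both 24 h libraries lay below untreated for miR-139-3p, as did 36.5% of the 458 miRNAs. This arm reached the count minimum only with the 24 reads of the untreated library, the deepest, as the 6 treated libraries averaged 7.67 reads. That favours values below untreated, so its contrasts against untreated are a description with no p. Its log2 fold change was -1.33 ± 0.86 at 24 h and -0.39 ± 0.84 at 36 h (SE). Scaled by all reads the values were -2.28 and -1.60, and scaled by miRNA reads without TMM the 36 h value was -0.05. At 48 h it stood at -0.01 ± 0.83 against untreated, and at 0.66 when the library of siRNA 1 was left out. Against 24 h the 48 h value was 1.32 ± 0.78, and 1.99 without that library. With siRNA 2 against siRNA 1 its mean count fell short of 10, so it was compared by an exact permutation test over 3 libraries each. The difference was 0.81 on the log2 scale (two-sided exact permutation p = 0.30), and the design cannot give a p below 0.10.

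The 5p arm held nearly all reads of the hairpin. Its share of the reads of both arms was 98.1% in untreated cells (95% Clopper-Pearson interval 97.1 to 98.8) and 99.1% ± 0.65 (SD, n = 6) after siRNA. With siRNA 1 the share was 99.1%, 97.9% and 99.8% at 24, 36 and 48 h, and with siRNA 2 it was 99.5%, 99.3% and 98.8%. siRNA 1 at 36 h alone lay below untreated, within its interval of 95.7 to 99.2. A ratio within a library does not depend on the scale chosen. Of 89 hairpins with both arms tested, the main arm held a median of 92.6% of reads in untreated cells, and 26 of the 89, miR-139 included, were at least as one-sided as miR-139.

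Averaged over the 3 times, the log2 ratio of 5p to 3p reads was 7.05 with siRNA 1 and 7.03 with siRNA 2, a difference of -0.01. An exact permutation test over 3 libraries each did not separate the siRNAs, but this design cannot give a p below 0.10. That outcome was thus set by the design, and no conclusion on the siRNAs is drawn from it. The ratio also includes the 5p arm at 48 h, on whose rise the pair was chosen. At 48 h alone the siRNAs differed in this balance. The 3p arm made up 0.222% of miR-139 reads with siRNA 1 (4 of 1801 reads, 95% interval 0.0605 to 0.568) and 1.19% with siRNA 2 (17 of 1433, interval 0.693 to 1.89). These intervals do not overlap, but each is 1 library and covers counting error only. The number of 5p reads per 3p read was 50.8 in untreated cells. It was 109, 46.9 and 449 with siRNA 1, and 185, 145 and 83.3 with siRNA 2. Pooling the siRNAs gave 147 for 24 h, 99.3 for 36 h and 153 for 48 h. The pools of 24 and 48 h thus nearly coincided, though the libraries of 48 h were the furthest apart of the 3 pairs. With siRNA 1 the 5p arm at 48 h was 4.85 times its 24 h level, while the ratio for the 3p arm was 1.18, with an interval of 0.235 to 5.49. With siRNA 2 the 5p ratio was 1.52 and that of the 3p arm 3.39 (1.20 to 11.8).

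**Figure D3:**
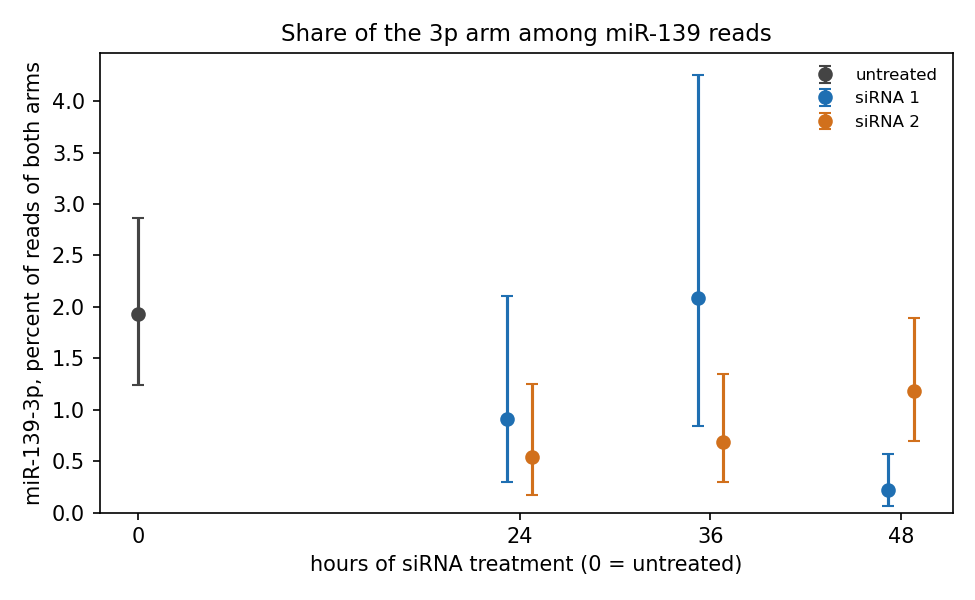
Share of miR-139-3p among the reads of both arms (percent, axis from 0) by hours of treatment, 1 point per library with its 95% Clopper-Pearson interval. The intervals at 48 h do not overlap (0.222% and 1.19%), while those at 24 h and at 36 h do.

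Other hairpins give a measure for this balance. The log2 arm ratio of miR-139 ranged over 3.19 across libraries, against a median range of 1.66, and 11 of the 89 hairpins, miR-139 included, ranged at least as widely. The mean at 48 h was 1.85 above untreated, where the median was -0.07 and 4 of the 89, again with miR-139, were as high or higher. In either direction 13 of the 89 differed by as much. The pair was chosen for the rise of its guide arm by 48 h, and that arm is the numerator of this ratio. A high ratio at 48 h is thus favoured by the choice, and these counts are a description. Over all 6 treated libraries the mean ratio of miR-139 was 1.29 above untreated. For 48 h against 24 h the difference was 0.47, and 57 of 89 hairpins differed by as much in either direction. The top of the range is the library with 4 reads of miR-139-3p, siRNA 1 at 48 h. Over libraries the arms had a correlation of 0.13 in log2 CPM (7 libraries, Spearman 0.18), and they share each library's depth.

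The miRNAs with the profile most like miR-139-5p over the 7 libraries were sought among 275 others with a mean count of at least 50. They were miR-149-5p (Pearson r = 0.95), miR-125b-1-3p (0.94), miR-193b-3p (0.94), miR-365b-3p (0.93) and miR-342-3p (0.91). The libraries share their scaling and depth, and the median r of all 275 was -0.07. miR-149-5p stood at 79.4 CPM in untreated cells, at 70.0, 62.2 and 182 CPM with siRNA 1, and at 83.2, 126 and 132 CPM with siRNA 2. miR-193b-3p, known as a tumour suppressor in liver cancer, had 405 CPM without treatment, 355, 424 and 639 CPM with siRNA 1, and 485, 568 and 690 CPM with siRNA 2. All 5 were highest in a 48 h library, and their ranges were narrower than that of miR-139-5p. miR-125b-1-3p comes from chromosome 11, as does miR-139, and the other 4 from chromosomes 2, 14, 16 and 17. The mature sequence of miR-365b-3p is shared by miR-365a-3p, so its count is uncertain.

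**Figure D4:**
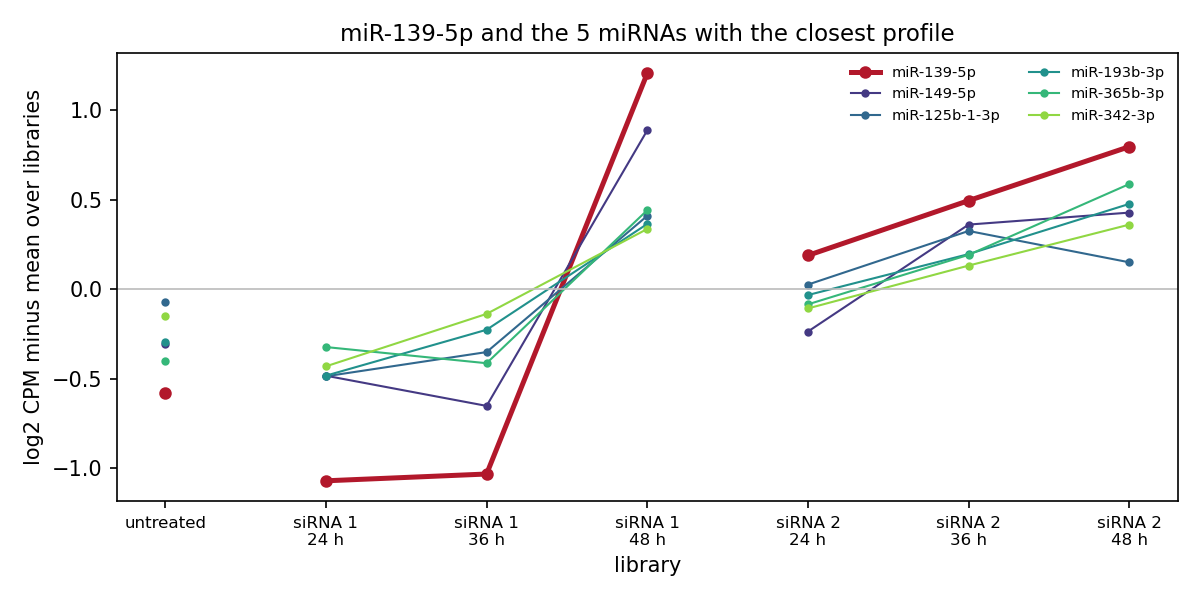
Log2 CPM minus the mean over libraries for miR-139-5p and its 5 closest profiles, by library, with lines joining the times of 1 siRNA. All 6 are below their mean in untreated cells and with siRNA 1 at 24 and 36 h, and above it in both 48 h libraries, with miR-139-5p spanning the widest range.

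The level of miR-139-5p moved with the split between libraries. That split sets both 48 h libraries apart, and the pair was chosen for miR-139-5p by 48 h, so the values here are a description. miR-139-5p had a correlation of 0.86 with the first principal component (7 libraries), on which its weight ranked 16th of 458. For miR-139-3p the correlation was 0.26 and the rank 150th. siRNA 2 at 24 h was the exception: it lay at -7.86 on the component, with the untreated library at -8.70, yet held 388 CPM of miR-139-5p against 227. The summed level of 6 blood markers was 15.3 CPM untreated, 46.3 and 37.1 CPM at 48 h and highest with siRNA 2 at 36 h (78.8 CPM), most of it miR-451a of red cells. Of the 6, 2 had reads in every library, and miR-223-3p, which defines myeloid cells, had 0 in all 7. The 5 markers of endothelium and fibroblasts, 4 with reads in every library, summed to 455 CPM untreated, 439 to 1061 CPM after siRNA, and 834 and 831 CPM at 48 h. The 5 markers of brain and neurons summed to 3942 CPM untreated, 3452 to 7833 CPM after siRNA and 7833 and 7213 CPM at 48 h, nearly all of it miR-128-3p. The 3 markers of muscle summed to 23.1 CPM untreated and 21.0 to 876 CPM after siRNA, with 27.1 and 26.3 CPM at 48 h. The 876 CPM, of which miR-1-3p made up 867, were in siRNA 1 at 36 h, a library low in miR-139-5p. The part of other cells in the level of miR-139-5p was not tested.

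miR-139-3p had fewer close profiles. miR-326 came first (r = 0.91, 22.7 CPM untreated and 16.5 to 28.0 CPM after siRNA), then miR-324-3p at 0.77 and miR-450a-5p at 0.74, miR-4443 at 0.64 and miR-125b-5p at 0.60. With 4 to 24 reads per library behind miR-139-3p, the part of counting error in these values was not tested.

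Within 10 Mb of MIR139 on chromosome 11 RefSeq places 27 other hairpins with 44 mature miRNAs, of which 27 had any read and 3 passed the count filter. miR-326, 2.72 Mb away, stood at -0.01 ± 0.48 (SE) at 48 h against untreated. miR-192-5p, a liver-enriched miRNA 7.72 Mb away, stood at 0.27 ± 0.39, between 1709 and 3064 CPM in the 7 libraries. miR-194-5p, clustered with it but also made from a second locus, stood at 0.24 ± 0.40. At 24 and 36 h none of the 3 passed by edgeR (adjusted p from 0.946 to 0.997), where 0 of all 458 miRNAs passed. At 48 h all 3 stood below the 1.60 of miR-139-5p, which was chosen for its rise by 48 h.

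Of the miRNAs known to be silenced with miR-139-5p by EZH2 in liver cancer, all 4 others were tested. At 48 h against untreated 3 of them were above 0 and 1 below, with a median of 0.30, where 48.3% of all 458 miRNAs were above 0. miR-200b-3p, a guardian of epithelial identity, had 6.34 CPM without treatment and 16.2 and 15.9 CPM at 48 h (1.33 ± 0.84 SE). miR-125b-5p had 853 CPM without treatment and 915 and 1287 CPM at 48 h (0.37 ± 0.36), and let-7c-5p at 0.24 ± 0.29. miR-101-3p, which targets EZH2 itself, was on the opposite side of untreated from miR-139-5p, at 3055 CPM untreated and 453 and 372 CPM at 48 h (-2.89 ± 1.04). At 24 h the 4 had a median of -0.02, 2 above and 2 below 0, where 44.5% of all 458 miRNAs were above 0. None of the 4 was called by edgeR at 24 or 48 h, where it called 0 of all 458 miRNAs.

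A wider list of 28 other miRNAs described as lower in liver cancer had 20 tested members. It includes the miRNAs of the EZH2 list above, so the lists are not independent. At 48 h against untreated 14 were above and 6 below 0, with a median of 0.22. The highest after miR-139-5p were miR-200b-3p and miR-199a-5p (1.26 ± 0.78), which had only 1.49 CPM untreated and 4.37 and 2.92 CPM at 48 h. The lowest were miR-122-5p, at 45.5 CPM untreated and 4.37 and 3.75 CPM at 48 h (-3.47 ± 1.29), miR-101-3p and miR-424-5p (-2.36 ± 1.13). At 24 h 14 were above and 6 below 0, with a median of 0.08. None was called at 24 or 36 h by edgeR, which called 0 of all 458 at these times. The value of miR-139-5p at 48 h was above all of these, but it was chosen for its rise by 48 h.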

How the data were processed

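The authors deposited, for each library, a table of unnormalized counts of reads on mature miRNAs and 5 summary lines that name no miRNA (56.9% of reads untreated and 73.5% to 86.6% after siRNA had no feature). Per the labels' protocols, total RNA from a column kit went into ligation-based small RNA libraries. Which aligner, counter or build they used is not given in the sources used here.

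Summary lines were left out of library sizes and tests. A mean count of 10 or more over the libraries admitted 458 miRNAs to edgeR 4.0.16 (R 4.3.3) with TMM factors and a quasi-likelihood F-test, with 1 group per time. With 1 untreated library, its variation was taken to equal that of the treated ones. siRNA 2 against siRNA 1 used the 6 treated libraries with time as a factor. Standard errors are those whose squared ratio to the log2 fold change gives F, and a prior count of 2 entered log2 CPM. Arm ratios over hairpins used a pseudocount of 0.5. The hairpin was folded with ViennaRNA 2.7.2. Alternatives were DESeq2 1.42.0, limma-voom 3.58.1, other scales and filters, libraries left out and the siRNA number as a block. The code was tested on simulated counts.

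The members, lists and naming rules were chosen with earlier results of these data known. The miRNAs named are both arms, the 5 closest profiles of each arm, tested miRNAs within 10 Mb, all miRNAs sharing a seed, the EZH2 list, and the 3 highest and 3 lowest of the liver cancer list. Cell type markers and a sequence twin are named beside them where they bear on a value; which markers to name was chosen after their values were seen.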

Additional observations from a re-analysis of the deposited data

Results flagged for a closer look

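In 5 cases the siRNAs moved to opposite sides under 1 contrast. Each rests on 1 library per siRNA and the difference was not tested. For miR-139-5p at 24 h against untreated, siRNA 1 stood at -0.49 and siRNA 2 at 0.77 on the log2 scale, 1.26 apart. At 36 h they stood at -0.45 and 1.08, 1.53 apart. miR-139-3p at 48 h against untreated stood at -1.36 and 0.66, 2.02 apart, from 4 and 17 reads against 24.

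The log2 ratio of miR-139-5p to miR-139-3p at 36 h against untreated stood at -0.12 with siRNA 1 and 1.52 with siRNA 2, 1.63 apart, from 7 and 8 reads of the 3p arm. For 48 h against 24 h it stood at 2.04 with siRNA 1 and -1.15 with siRNA 2, a difference of -3.19. The 3p arm gave 5 and 4 reads with siRNA 1 and 5 and 17 with siRNA 2.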

How the results depend on the processing

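Of 132 alternative values, 126 kept the direction and side of the threshold or, at 48 h, moved by less than the SD between libraries of a time (0.82 for miR-139-5p and 0.70 for miR-139-3p, log2). With all reads as the scale miR-139-5p stood at -0.79 at 24 h, -0.61 at 36 h and 0.47 at 48 h against untreated, and miR-139-3p at -2.28, -1.60 and -1.09. Without siRNA 2 of that time miR-139-5p stood at -0.50 at 24 h and -0.46 at 36 h. Leaving out 1 library at a time gave miR-139-5p -0.50 to 0.77 at 24 h, -0.46 to 1.11 at 36 h and 1.38 to 1.79 at 48 h against untreated. Without siRNA 2 at 48 h, and with a mean count of 50, miR-139-3p fell below the count filter and had no value. The siRNA number did not pair libraries: deviations of same-numbered libraries had correlations of 0.10, -0.25 and -0.16 between times. With it as a replicate block miR-139-5p stood at 0.16, 0.36 and 1.71 at 24, 36 and 48 h against untreated, and 0 miRNAs were called at each time. Without time as a factor siRNA 2 against siRNA 1 gave 0.43. Calls over all miRNAs moved more: 0 by edgeR at 24 and 36 h became 2 and 49 with all reads as the scale, 2 and 10 with no count filter, 5 and 91 without siRNA 1 at 36 h, and 14 and 14 without siRNA 2 at 36 h. miR-139-3p had 4 to 24 reads per library, so its counting intervals are wide.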
